A study of Mus musculus with 12 samples.

Results

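The comparison of corneas given either cord blood-derived biologic with corneas of the same injury labelled Vehicle was examined across all genes. It used 9 of the 12 libraries of the series: 6 treated libraries (UCS replicates 1 to 3 and UCPRP replicates 1 to 3) and 3 Vehicle libraries. UCS and UCPRP were each given the same weight, so the contrast is the mean of both treated groups minus Vehicle. The groups were taken from the sample titles and not from measured values.

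RNA sequencing was done on whole mouse cornea. Vehicle, UCS and UCPRP corneas all carried the same injury: 5 µl of 0.2% benzalkonium chloride (BAK, a detergent preservative of eye drops that damages the ocular surface) on each eye daily for 14 days. Vehicle is labelled as injured without treatment, and whether those corneas received drops without a biologic is not stated. UCS and UCPRP corneas received 5 µl of a 20% preparation 3 times daily for 10 days; the series title describes both as derived from cord blood, and the labels do not expand the abbreviations. Control corneas, used here only as the uninjured level and for the estimate of spread, had neither. Each library pooled 6 corneas of 3 mice, so a replicate is a pool and 3 pools stand for each group. Strain, sex and age of the mice, the hour of harvest, and whether the drops followed BAK or overlapped with it do not appear in the sources used here.

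After a surface injury the cornea recruits neutrophils through CXCR2 chemokines such as Cxcl5, and IL-1 and IL-6 family cytokines amplify that recruitment. Stromal cells answer TGF-beta by laying down fibrillar collagens, fibronectin, tenascin and thrombospondins, which metalloproteinases such as Mmp3, Mmp9 and Mmp13 then remodel. Serum and platelet preparations supply growth factors and are applied as eye drops to surfaces that heal poorly; epithelial keratins and goblet cell mucins mark the state of that surface. Many transcripts also follow the time of day, and Dbp and Arntl, on opposing sides of the circadian clock, peak at different hours.

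Library totals lay between 18.55 M and 20.44 M estimated counts. A count of 0 therefore allows a level of up to 3 counts, or 0.147 to 0.162 CPM (the count relative to library size) depending on the library, counting error only. Levels below are CPM scaled by TMM, and fold changes are log2 values from the fit, given as value ± SE. Clock phase did not fall evenly over the groups. Dbp was low (14.7 to 25.9 CPM) in Vehicle replicates 1 and 2, UCS replicate 1 and Control replicate 3, and high (139 to 280.3 CPM) in the other 8 libraries. Vehicle replicate 3 was thus the only Vehicle library of the high-Dbp phase, UCPRP had no low-Dbp library, and phase and treatment are partly confounded. Genes of tissues next to the cornea varied too: summed skeletal muscle genes reached 329.8 to 2075 CPM in Vehicle, 66.3 to 445 CPM in UCS and 19.9 to 794 CPM in UCPRP, and lens genes ranged from 216 to 33536 CPM with no order by group. Markers of corneal epithelium summed to 19923 to 24062 CPM in Vehicle and 20684 to 23221 CPM and 19931 to 23551 CPM in UCS and UCPRP, against 51093 to 99231 CPM in Control.

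The pooled contrast asked which genes differed in injured corneas that had received either biologic. Some genes of inflammation, matrix, matrix-degrading enzymes, vessels and macrophages were lower in the treated libraries, and a smaller set led by the cytokine receptor Lifr was higher. However, no gene passed the test over all 16124 genes. Parts of this picture depend on Vehicle replicate 3. Without Vehicle replicate 3 the median log2 fold change of the matrix list was -0.00285. The neutrophil list had a mean log2 CPM of 5.30 and 5.22 in Vehicle replicates 1 and 2 but 3.07 in replicate 3. Its median log2 fold change was -2.24 with all libraries and -2.70 without Vehicle replicate 3. By the quasi-likelihood test of edgeR, with p-values adjusted after Benjamini and Hochberg, 0 genes (0% in either direction) had an adjusted p under 0.05, and the smallest adjusted p was 0.207. At an unadjusted p under 0.05 there were 1390 genes, 961 lower (5.96%) and 429 higher (2.66%). These shares of all genes are the background for the counts given for each list below. DESeq2 called 147 lower (0.912%) and 7 higher (0.0434%) at the same threshold, and limma-voom called 0. One library decided the edgeR count: without Vehicle replicate 3, edgeR called 238 genes lower (1.46%) and 23 higher (0.141%), whereas leaving out any of the other 8 injured libraries gave 0. Of the 154 genes that DESeq2 called, 113 (73.4%) were among the 261 called without Vehicle replicate 3, of which they made up 43.3%. A separate count needs no model: in 281 genes (1.74%) all 6 treated libraries lay below all 3 Vehicle libraries, and in 257 (1.59%) above them. Whether these shares exceed chance was not tested. The leading genes named by rule were picked from these sets, so their lack of overlap is not a further result.

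**Figure D1:**
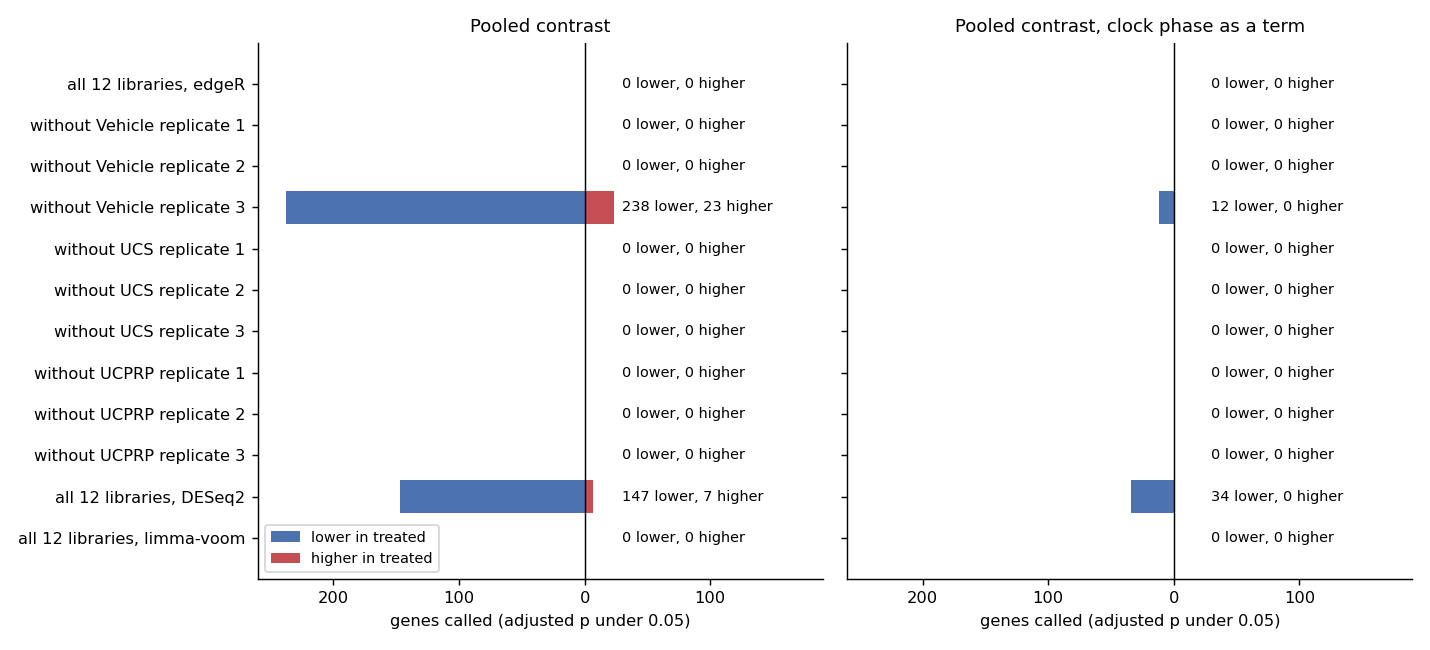
Number of genes called at an adjusted p under 0.05 (x axis; lower in treated to the left, higher to the right) for each left-out library and each tool, without (left) and with (right) clock phase as a term. With edgeR, calls appear only without Vehicle replicate 3: 238 lower and 23 higher without the phase term, and 12 lower with it.

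For description, lower genes were sorted by the level of Vehicle replicate 3 into a pair of patterns. In the first, with several genes of matrix and vessels, all 3 Vehicle libraries were high. In the second, with genes of neutrophils and acute inflammation, Vehicle replicates 1 and 2 were high and replicate 3 lay close to the treated libraries. The sorting was not tested. Some genes lay between the patterns, and for others only Vehicle replicate 3 stood out.

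Tgfb3 had the smallest unadjusted p of the genes named by rule. It encodes transforming growth factor beta 3 (chromosome 12, 86056743 to 86079041, GRCm38.p6), a ligand of the TGF-beta receptors. Vehicle libraries held 44.2, 44.5 and 47.3 CPM, UCS 33.2, 32.7 and 30.8 and UCPRP 30.1, 34.2 and 29.7. Vehicle libraries thus stood above every treated library with little spread in any group, and all treated libraries stood above all Control libraries. The log2 fold change was -0.51 ± 0.08, -0.49 for UCS and -0.53 for UCPRP, with an adjusted p of 0.207 by edgeR's quasi-likelihood test and 0.000422 by DESeq2. Tgfbr2, the type II receptor for TGF-beta (chosen after its values were seen), showed the same order, with 146, 113 and 128 CPM in Vehicle and 96 to 103 CPM (median 97.9) in the treated libraries (-0.39 ± 0.09). Snai1, a transcription factor induced by TGF-beta and a marker of mesenchymal transition, held 11.2, 10.5 and 10.6 CPM in Vehicle and 6.13 to 8.32 CPM in treated libraries (-0.56 ± 0.11). Across the list of TGF-beta and mesenchymal transition genes the picture was mixed: 5 of 21 were lower and 0 higher at an unadjusted p under 0.05, with a median log2 fold change of -0.10 against 0.01 over all genes. Vim, the intermediate filament protein with the highest level in that list, was at 521, 570.2 and 567 CPM in Vehicle and 428 to 985 CPM in treated libraries, which overlap.

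Matrix genes lay in the same direction. Thbs1 (chromosome 2, 118111876 to 118127133), thrombospondin 1, a matricellular activator of latent TGF-beta, was at 401, 349 and 367 CPM in Vehicle, 195, 284 and 228 in UCS and 260.5, 223 and 269.8 in UCPRP, with no overlap (-0.61 ± 0.12). Col3a1, the fibrillar collagen of healing stroma (chromosome 1, 45311538 to 45349706), was at 596, 702 and 787 CPM in Vehicle, 176, 409 and 322 in UCS and 219, 402 and 431 in UCPRP. UCS replicate 1 lay within the Control range of 123 to 189 CPM for Col3a1, and the other 5 treated libraries lay between Control and Vehicle (-1.09 ± 0.27). Lox, the enzyme that crosslinks collagen, was at 108, 123 and 103 CPM in Vehicle and 33.2 to 80.7 CPM (median 51.9) in treated libraries (-1.09 ± 0.23). Fn1, fibronectin, was at 559, 528 and 556 CPM against 273 to 504 CPM (median 317), and UCPRP replicate 3 came closest to Vehicle (-0.66 ± 0.19). Lox and Fn1 were picked after their values were seen. Tnc, tenascin C, a glycoprotein of provisional matrix, spread widely among treated libraries, 57.9, 158 and 117 CPM in UCS and 53.2, 57.8 and 164 in UCPRP, yet all stayed below Vehicle at 245, 279 and 197 (-1.25 ± 0.37). Fbln2, fibulin 2, a matrix scaffold protein, was at 54.8, 72.4 and 75.3 CPM in Vehicle and 29.1 to 51.8 CPM (median 38.3) in treated libraries (-0.79 ± 0.17).

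**Figure D2:**
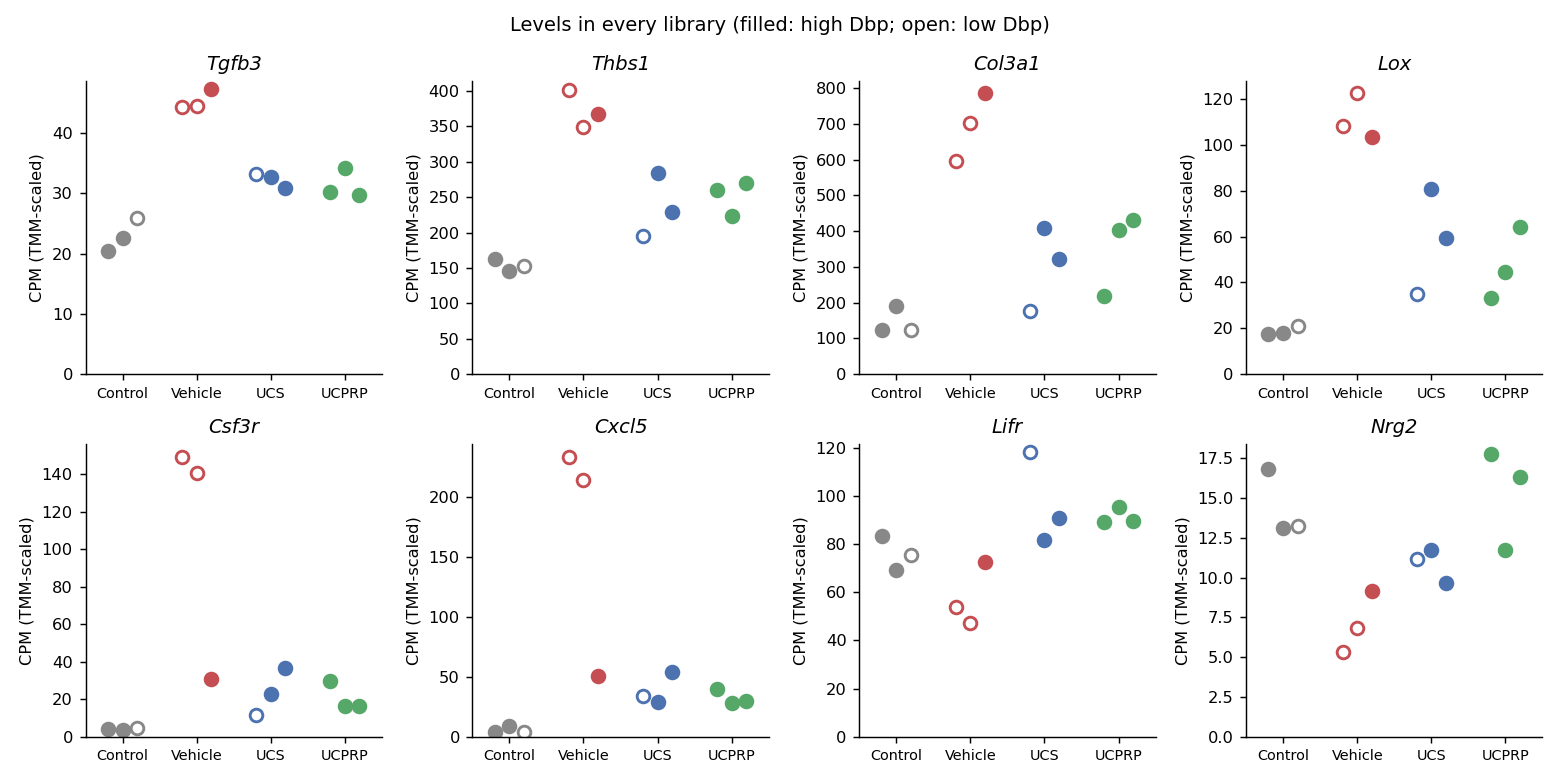
Levels of 8 genes in every library (y axis, CPM scaled by TMM, from 0; x axis, group; filled points, high Dbp; open points, low Dbp). For Tgfb3, Thbs1, Col3a1 and Lox all 3 Vehicle libraries lie above all treated ones, for Csf3r and Cxcl5 only Vehicle replicates 1 and 2 do, and for Lifr and Nrg2 all treated libraries lie above Vehicle.

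Not every collagen or matrix gene took part. Of the 25 genes in the matrix and myofibroblast list, 9 were lower at an unadjusted p under 0.05 and 0 higher (5.96% and 2.66% of all genes). In 5 of them all treated libraries lay below Vehicle without overlap (1.74% of all genes). The median log2 fold change was -0.20 (-0.30 for UCS and -0.15 for UCPRP, which share the Vehicle libraries). Without Vehicle replicate 3 that median was -0.00285. Mean log2 CPM of the list was 8.08, 8.05 and 8.41 in Vehicle, 7.56, 8.18 and 7.69 in UCS and 7.98, 7.77 and 8.24 in UCPRP, so only Vehicle replicate 3 lay above all treated libraries. Sparc, the abundant collagen-binding protein with the highest level of the list, was at 1331, 1471 and 2460 CPM in Vehicle and 1073 to 2084 CPM in treated libraries. Its log2 fold change of -0.06 turned to 0.27 without Vehicle replicate 3. Col1a1, the main collagen of stroma (chosen after its values were seen), behaved alike, 1284, 1256 and 2407 CPM in Vehicle against 971 to 1751 CPM, so only Vehicle replicate 3 stood out (-0.20, and 0.17 without that library).

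With clock phase as a term the matrix list lay further from 0. In that fit Vehicle replicate 3, the highest library for this list, is the only high-Dbp Vehicle library. The list's median was -0.40, and 13 of 25 genes were lower at an unadjusted p under 0.05 (against 3.78% of all genes lower and 1.38% higher). That fit also gave 0 edgeR calls, with a smallest adjusted p of 0.571 and 832 genes at an unadjusted p under 0.05; limma-voom gave 0, and DESeq2 gave 34, all lower (0.219%), 7 of which belong to the matrix list. Without Vehicle replicate 3 the same edgeR fit called 12 genes, all lower. Fbln2 was -0.95 in the fit with phase, Col3a1 -1.39, Thbs1 -0.68 and Tgfb3 -0.48 (DESeq2 adjusted p 0.00179, 0.00163, 0.00191 and 0.0189). Col1a1 was -0.53 (DESeq2 adjusted p 0.00179), and Thbs2, a thrombospondin close to Thbs1 and likewise chosen after its values were seen, -0.78 (0.00179). Gpc1, a cell-surface heparan sulfate proteoglycan, and Lgals9, the lectin galectin 9, were also among the leading genes of this fit. For Gpc1, Vehicle held 66.5, 68.5 and 87.7 CPM and treated libraries 51.7 to 63.8 CPM (median 57.9) (-0.50 with phase, -0.38 without). For Lgals9, Vehicle held 63.3, 54.7 and 62 CPM and treated libraries 38.2 to 52.2 CPM (median 40.0) (-0.71 with phase, -0.50 without). For both genes, no overlap between treated and Vehicle libraries was a condition of being named.

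Skeletal muscle genes, which are not corneal, were also highest in Vehicle replicate 3. All 15 of the muscle list had a negative log2 fold change (46.7% of all genes did, and 53.3% a positive one), with a median of -1.63, and 3 of them at an unadjusted p under 0.05. Mean log2 CPM of the list was 4.10, 5.58 and 6.70 in Vehicle, 3.66, 4.48 and 1.72 in UCS and 5.15, 4.72 and 0.02 in UCPRP. Vehicle replicate 3 was the highest in both the muscle and the matrix list. With clock phase as a term the median of the muscle list was -1.95, so this list also lay further from 0 in that fit. Myh13, an eye-muscle myosin (chosen after its values were seen), was at 0.558, 33.3 and 78.5 CPM in Vehicle and 0.0637 to 4.56 CPM in treated libraries. Myl1, a muscle myosin light chain, was at 43, 90.9 and 180.4 CPM in Vehicle and 0.789 to 133 CPM in treated libraries, which overlap. With the muscle list as a covariate, Thbs1 was -0.61, Col3a1 -1.26 and Tgfb3 -0.50; the part of muscle RNA in the matrix values was not tested beyond that fit.

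Enzymes that degrade matrix were lower as well. Mmp3, stromelysin 1, which cleaves proteoglycans and activates other metalloproteinases, was at 436, 341 and 206 CPM in Vehicle, 129.7, 134 and 145 in UCS and 116, 172 and 87.5 in UCPRP, against 39.7 to 69.9 CPM in Control. No treated library reached a Vehicle library, and Vehicle replicate 3 was the nearest (-1.33 ± 0.25; DESeq2 adjusted p 0.0011). Mmp13, a collagenase (chosen after its values were seen), was at 65.2, 34.4 and 36.6 CPM in Vehicle and 6.38, 12.6 and 22.4 in UCS and 3.47, 14.8 and 9.1 in UCPRP (-2.01 ± 0.41). Mmp9, a gelatinase of epithelium and neutrophils, was at 43.5, 50.6 and 15.8 CPM in Vehicle, and its highest treated library, UCS replicate 3 at 15.5 CPM, lay just under Vehicle replicate 3 (-1.68 ± 0.42). Mmp2, the gelatinase of stromal cells (chosen after its values were seen), was at 198, 203 and 274 CPM against 144 to 213 CPM, an overlap set by 1 library, UCPRP replicate 2 (-0.37, and -0.53 with phase). Timp3, a metalloproteinase inhibitor and the list's most abundant gene, was 0.06. In all, 13 of 22 tested protease and inhibitor genes were lower and 0 higher at an unadjusted p under 0.05. The list's median was -0.68 (-0.57 for UCS, -0.78 for UCPRP), -0.49 with clock phase as a term and -0.92 without Vehicle replicate 3. Mean log2 CPM of the list was 6.01, 5.63 and 5.05 in Vehicle, 4.71, 4.89 and 4.92 in UCS and 4.85, 4.74 and 4.70 in UCPRP. Vehicle replicate 3 was thus the nearest to the treated libraries. Among high-Dbp libraries, where Vehicle is replicate 3 alone, the median was -0.16. Among low-Dbp libraries, where the treated arm is UCS replicate 1 alone, it was -0.79.

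Bases upstream of the start sites of Mmp3 and Mmp13 are shown because both collagen- and proteoglycan-degrading enzymes, neighbours on chromosome 9, were lower together and each holds a match to the AP-1 motif TGANTCA in the 250 bases before its start. Sequences are from RefSeq (GRCm38.p6), written 5′ to 3′ on the strand of the gene (both forward), with the match in capitals:
Mmp3 (chr9:7445572-7445821): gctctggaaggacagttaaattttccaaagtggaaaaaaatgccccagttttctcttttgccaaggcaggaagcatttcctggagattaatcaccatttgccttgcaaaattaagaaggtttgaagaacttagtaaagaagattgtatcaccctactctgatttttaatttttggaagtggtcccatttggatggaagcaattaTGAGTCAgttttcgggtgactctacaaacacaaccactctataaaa
Mmp13 (chr9:7272264-7272513): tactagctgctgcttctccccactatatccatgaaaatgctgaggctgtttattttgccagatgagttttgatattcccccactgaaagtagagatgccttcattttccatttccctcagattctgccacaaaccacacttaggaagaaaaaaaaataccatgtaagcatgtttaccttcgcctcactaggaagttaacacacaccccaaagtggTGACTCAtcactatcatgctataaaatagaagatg
The matches begin 46 and 35 bases before the start. Searched on both strands, TGANTCA occurs in 6.75% of 32851 RefSeq windows of that length, so the match is a description and not a measured site. Among the 14 genes named by rule as leading and lower in either fit, 9 had a window, and 1 of these, Mmp3, held the motif.

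A few vessel genes shared the first pattern. Pecam1 (CD31, chromosome 11, 106654213 to 106715281), the junction protein of endothelium that leukocytes and platelets also carry, was at 30.7, 27.5 and 25.5 CPM in Vehicle, 18.8, 16.5 and 19.3 in UCS and 15.9, 13.7 and 16.9 in UCPRP (-0.73 ± 0.12). Cdh5, the cadherin particular to endothelium (chosen after its values were seen), was at 22.2, 19 and 17.8 CPM in Vehicle and 9.76 to 14.2 CPM (median 13) in treated libraries (-0.67 ± 0.17). Neither gene overlapped. Of 18 blood and lymph vessel genes 5 were lower and 0 higher at an unadjusted p under 0.05 (median -0.29); Pdpn, podoplanin, the most abundant of them and also epithelial, was at 296, 235 and 194 CPM against 169 to 224 CPM. In bulk tissue, fewer cells of a type and less RNA per cell cannot be told apart.

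Macrophage genes lay between the patterns: mean log2 CPM of the list was 5.24, 4.99 and 4.59 in Vehicle, 4.08, 4.34 and 4.78 in UCS and 4.18, 4.06 and 4.17 in UCPRP, so Vehicle replicate 3 lay below UCS replicate 3. Csf1r, the receptor for macrophage colony-stimulating factor, was at 80.6, 67.6 and 64.1 CPM in Vehicle and 44.4 to 58.5 CPM (median 49.6) in treated libraries (-0.49 ± 0.10). Mrc1, the mannose receptor of tissue macrophages, was at 54.9, 43.7 and 33.7 CPM against 17.4 to 30.2 CPM (median 26.5) (-0.79 ± 0.18), and Chil3, a chitinase-like macrophage protein, at 2.63, 3.71 and 0.562 CPM against 0.0514 to 0.437 CPM, several of the latter near the limit that a count of 0 allows. These 3 were chosen after their values were seen, and none overlapped, although for Chil3 Vehicle replicate 3 lay close to the highest treated library. Of the 21 tested macrophage and monocyte genes, 11 were lower and 0 higher at an unadjusted p under 0.05. In 6 of them all treated libraries lay below Vehicle without overlap (1.74% of all genes). The list's median was -0.49, and -0.52 with clock phase as a term. Gpnmb, the list's most abundant gene and also a pigment cell gene, was at 1849, 1158 and 1519 CPM in Vehicle and 1324 to 1908 CPM in treated libraries.

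Agtr2, the type 2 angiotensin II receptor, Sh3kbp1, an adaptor of receptor endocytosis, Tes, a focal adhesion protein, and Slfn5, a member of the interferon-inducible Schlafen family, completed the leading lower genes. Agtr2 held 39.8, 33.8 and 34.1 CPM in Vehicle and 22 to 29 CPM (median 24.2) in treated libraries (-0.53 ± 0.11). Sh3kbp1 held 35.1, 31.1 and 27.1 CPM against 20.4 to 23.6 CPM (median 22.8) (-0.49 ± 0.09), and Tes 39, 33.4 and 29.6 CPM against 19.4 to 27.9 CPM (median 23.1) (-0.54 ± 0.11). Slfn5 held 35.5, 24.6 and 28.5 CPM against 13 to 21.8 CPM (median 18.1) (-0.74 ± 0.15). No overlap between the groups was a condition for naming these 4 genes, and the edgeR adjusted p was 0.207 for each.

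Neutrophil genes made up the second pattern. Csf3r, the receptor for granulocyte colony-stimulating factor that marks neutrophils (chromosome 4, 126023441 to 126044975), was at 149, 140.4 and 31 CPM in Vehicle, 11.6, 22.8 and 36.4 in UCS and 29.6, 16.5 and 16.2 in UCPRP, with 3.45 to 4.88 CPM in Control. Vehicle replicate 3 fell inside the treated range, below UCS replicate 3. Cxcr2, the receptor that guides neutrophils toward ELR chemokines, showed the same layout, 50.7, 49.3 and 11.1 CPM in Vehicle and 5.56 to 11.3 CPM (median 7.43) in treated libraries. S100a8, a calprotectin subunit of neutrophil cytosol, was at 48.8, 55.2 and 6.33 CPM in Vehicle, 1.17, 3.32 and 10.2 in UCS and 7.58, 6.42 and 2.47 in UCPRP. Log2 fold changes were -2.27 ± 0.43 for Csf3r, -2.23 ± 0.39 for Cxcr2 and -2.83 ± 0.64 for S100a8, none of them past edgeR's test with all libraries (adjusted p 0.207, 0.207 and 0.211). Without Vehicle replicate 3 they were -2.71, -2.66 and -3.33 (edgeR adjusted p 0.0052, 0.00208 and 0.0176). Trem1, an amplifying receptor of myeloid cells, was at 19.1, 15.8 and 1.53 CPM in Vehicle and at 0.797 to 3.42 CPM in treated libraries. Csf3r, Cxcr2 and Trem1 were chosen after their values were seen.

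Of the 16 neutrophil genes listed, 11 passed the filter on low counts, and 9 of these were lower at an unadjusted p under 0.05. Yet 0 were free of overlap between treated and Vehicle libraries (1.74% of all genes lay lower without overlap). The filter used all 12 libraries, so genes low everywhere except Vehicle could still pass. Mean log2 CPM of the list was 5.30, 5.22 and 3.07 in Vehicle, 2.09, 2.70 and 3.82 in UCS and 3.03, 2.79 and 2.33 in UCPRP. UCS replicate 3 was the highest treated library. The median log2 fold change was -2.24 (-2.17 for UCS and -2.36 for UCPRP). With clock phase as a term it was -1.72, and 2 of the 11 were lower at an unadjusted p under 0.05 (3.78% of all genes). Ltf, lactoferrin, an antimicrobial protein of neutrophil granules and of glands and the most abundant gene of the list, was at 968, 839.9 and 682 CPM in Vehicle, 349, 446 and 829.6 in UCS and 210.1, 295 and 395 in UCPRP, so all UCPRP libraries lay below Vehicle while UCS replicate 3 did not (-1.04 ± 0.40).

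**Figure D3:**
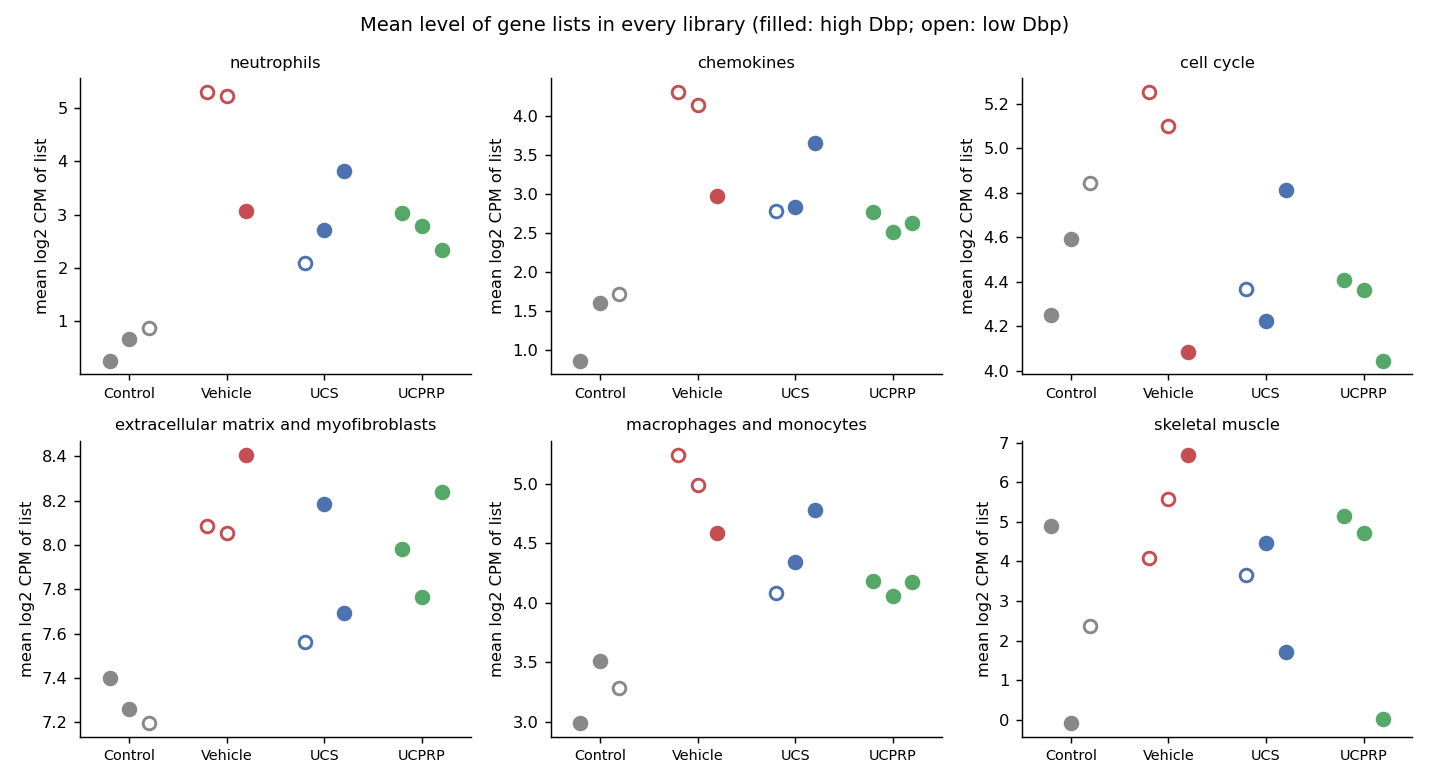
Mean log2 CPM of 6 gene lists in every library (y axis; x axis, group; filled points, high Dbp; open points, low Dbp). Neutrophil, chemokine and cell cycle genes are high in Vehicle replicates 1 and 2 and not in replicate 3 (3.07 for neutrophils), while Vehicle replicate 3 is the highest library for matrix (8.41) and skeletal muscle.

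Among the ligands that attract neutrophils, Cxcl5, made by epithelium, was at 233, 214 and 50.7 CPM in Vehicle, 33.8, 28.6 and 54 in UCS and 40.1, 28.3 and 29.6 in UCPRP (-2.22 ± 0.40). Only UCS replicate 3 exceeded Vehicle replicate 3. Cxcl2, a ligand of the same receptor (chosen after its values were seen), was at 42.1, 23.5 and 0.937 CPM in Vehicle and 0.586 to 4.55 CPM in treated libraries, and there Vehicle replicate 3 was lower than 5 of the 6 treated libraries (-3.15 ± 0.75). Ppbp, a platelet and epithelial chemokine and the most abundant of the list, was at 613, 575 and 337 CPM in Vehicle, 168, 200.2 and 214 in UCS and 175, 409 and 99.1 in UCPRP; UCPRP replicate 2 overlapped with Vehicle (-1.27 ± 0.43). Of 26 tested chemokine genes 15 were lower and 1 higher at an unadjusted p under 0.05, with a median of -0.99. With clock phase as a term 5 were lower and 1 higher (3.78% and 1.38% of all genes), with a median of -0.75, and Cxcl2 was -1.64.

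Cytokines and their intracellular targets lay alike. Il1b, interleukin 1 beta, was at 113, 97.1 and 7.56 CPM in Vehicle and 3.51, 6.21 and 24.9 in UCS and 11.9, 9.45 and 6.68 in UCPRP (-2.80 ± 0.71). Il6 did not pass the filter on low counts: Vehicle libraries held 23, 15 and 0 rounded counts, UCS libraries 0, 0 and 4, and UCPRP libraries 0, 0 and 1. Csf3, the ligand of Csf3r, was at 36.1, 14.7 and 5.82 CPM in Vehicle and 3.91 to 14.2 CPM (median 7.3) in treated libraries (-1.21 ± 0.51). Nlrp3, the sensor of the inflammasome, which matures interleukin 1 beta, was at 16.7, 10.6 and 2.25 CPM against 1.18 to 3.47 CPM. Socs3, the feedback inhibitor induced by STAT3, was at 99.9, 86.8 and 22.3 CPM against 15.1 to 31.2 CPM, and Lrg1, a secreted glycoprotein also induced by STAT3, at 30.4, 27.4 and 6.38 CPM against 2.26 to 7.31 CPM. These last 3 were chosen after their values were seen. Il1f9 (IL-36 gamma), an epithelial member of the IL-1 family and the list's most abundant gene, was at 227, 181 and 122 CPM against 99.8 to 171 CPM (-0.57 ± 0.25). Of 24 tested cytokine and receptor genes 14 were lower and 0 higher at an unadjusted p under 0.05, with a median of -0.55. With clock phase as a term 4 were lower (3.78% of all genes), with a median of -0.31, Csf3 was -0.44 and Il1f9 -0.33.

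Windows before an annotated start of Cxcl2 and of Socs3 are shown as the ligand and the intracellular inhibitor of this group that hold, respectively, a match to the NF-kB motif (the letters in capitals, any base being allowed at the fifth) and to the STAT motif TTCNNNGAA, also in capitals; both are RefSeq sequences of GRCm38.p6 written 5′ to 3′ on the strand of the gene, forward for Cxcl2 and reverse for Socs3:
Cxcl2 (chr5:90903649-90903898): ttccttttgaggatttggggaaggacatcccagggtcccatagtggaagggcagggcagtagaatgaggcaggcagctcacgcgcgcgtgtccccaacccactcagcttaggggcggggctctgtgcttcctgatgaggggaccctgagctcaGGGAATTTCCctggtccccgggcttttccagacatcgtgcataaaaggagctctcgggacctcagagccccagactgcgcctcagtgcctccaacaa
Socs3 (chr11:117969367-117969616): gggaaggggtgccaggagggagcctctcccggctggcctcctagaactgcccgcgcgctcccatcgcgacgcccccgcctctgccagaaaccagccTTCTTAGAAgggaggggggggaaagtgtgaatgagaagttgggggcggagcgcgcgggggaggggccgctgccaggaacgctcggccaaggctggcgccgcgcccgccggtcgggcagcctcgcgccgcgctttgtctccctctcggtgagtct
On either strand, the NF-kB motif occurs in 0.356% and the STAT motif in 7.02% of the 32851 windows. Of the 9 leading lower genes with a window, 0 held the NF-kB and 0 the STAT motif. The Socs3 window precedes 1 of its RefSeq starts and lies inside the gene's full span, which reaches 117970336. The genes and motifs shown were picked after the expression values were known, and no binding was measured.

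Cell cycle genes followed the layout of the second pattern. All 23 cell cycle genes had a negative log2 fold change (46.7% of all genes did), 6 of them at an unadjusted p under 0.05, with a median of -0.54. For 0 of the 23 were treated and Vehicle libraries free of overlap (1.74% of all genes lay lower without overlap). With clock phase as a term the median was -0.26 and 0 of 23 were at an unadjusted p under 0.05 (3.78% of all genes were lower). Mki67, the proliferation marker with the highest level, was at 158, 125 and 52.7 CPM in Vehicle and 45 to 106 CPM (median 70.7) in treated libraries. Top2a, a topoisomerase of replicating cells, was at 152, 125 and 49.2 CPM against 49.3 to 100.5 CPM, and Bub1, a mitotic checkpoint kinase, at 18.2, 16.2 and 5.26 CPM against 6.37 to 9.91 CPM. In each, Vehicle replicate 3 was at the low end of the treated range or below it. Log2 fold changes were -0.69, -0.75 and -0.86, and -0.16, -0.28 and -0.32 with clock phase as a term. Krt16, a keratin of wounded and hyperproliferative epithelium, was at 667, 493 and 116 CPM in Vehicle, 65.5, 98.1 and 176 in UCS and 289.9, 208 and 128 in UCPRP (-1.47 ± 0.48). Lcn2, the siderophore-binding lipocalin, was at 86, 84.1 and 29.5 CPM in Vehicle, with 118 CPM in UCS replicate 3 and 14.3 to 26.5 in the other treated libraries. Top2a, Bub1, Krt16 and Lcn2 were chosen after their values were seen. Of the 21 tested genes of the epidermal keratinization list 3 were lower and 2 higher at an unadjusted p under 0.05 (median -0.19), against 5.96% and 2.66% of all genes. Krt6b, a stress keratin with the list's highest level, was at 6464, 4315 and 5670 CPM in Vehicle and 4382 to 5934 CPM in treated libraries (-0.09 ± 0.20).

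Since Vehicle replicate 3 tells the patterns apart and is also the only high-Dbp Vehicle library, values within a phase restate that layout, and each phase has an arm of 1 library. Among high-Dbp libraries, where Vehicle is replicate 3 alone against 5 treated libraries, the median log2 fold change was -0.01 for neutrophils, 0.24 for chemokines and 0.32 for the cell cycle, but -0.53 for matrix, -0.40 for vessels and -0.23 for macrophages. Among low-Dbp libraries, where Vehicle replicates 1 and 2 stand against UCS replicate 1 alone, the same medians were -3.53, -1.60, -0.83, -0.38, -0.09 and -0.76. Csf3r was -0.33 among high-Dbp libraries and -3.63 among low-Dbp libraries; Tgfb3 was -0.59 and -0.42, Thbs1 -0.54 and -0.94, and Lifr 0.29 and 1.23. No gene was called by edgeR in either subset (299 genes at an unadjusted p under 0.05 among high-Dbp libraries and 999 among low-Dbp libraries). The difference between the phases was also tested, in a fit added after the data were seen that let the phase term differ between Vehicle and the other groups. It called 0 genes by edgeR (645 at an unadjusted p under 0.05, smallest adjusted p 0.34) and 63 by DESeq2. Among the latter were Trem1, Socs3, Cxcr2, Cxcl2, Nlrp3, Cxcl5 and Csf3r, and not Tgfb3, Thbs1 or Col3a1. These genes had been sorted above by the level of Vehicle replicate 3, which this fit compares again. Their calls therefore restate the sorting and add no support to it. For Lifr the difference between phases was 0.74 ± 0.23 (unadjusted p 0.00938; adjusted p 0.866 by edgeR's quasi-likelihood test and 0.485 by DESeq2). In Vehicle the phase term rests on 1 library against 2, so clock phase and any other feature of Vehicle replicate 3 cannot be told apart.

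**Figure D4:**
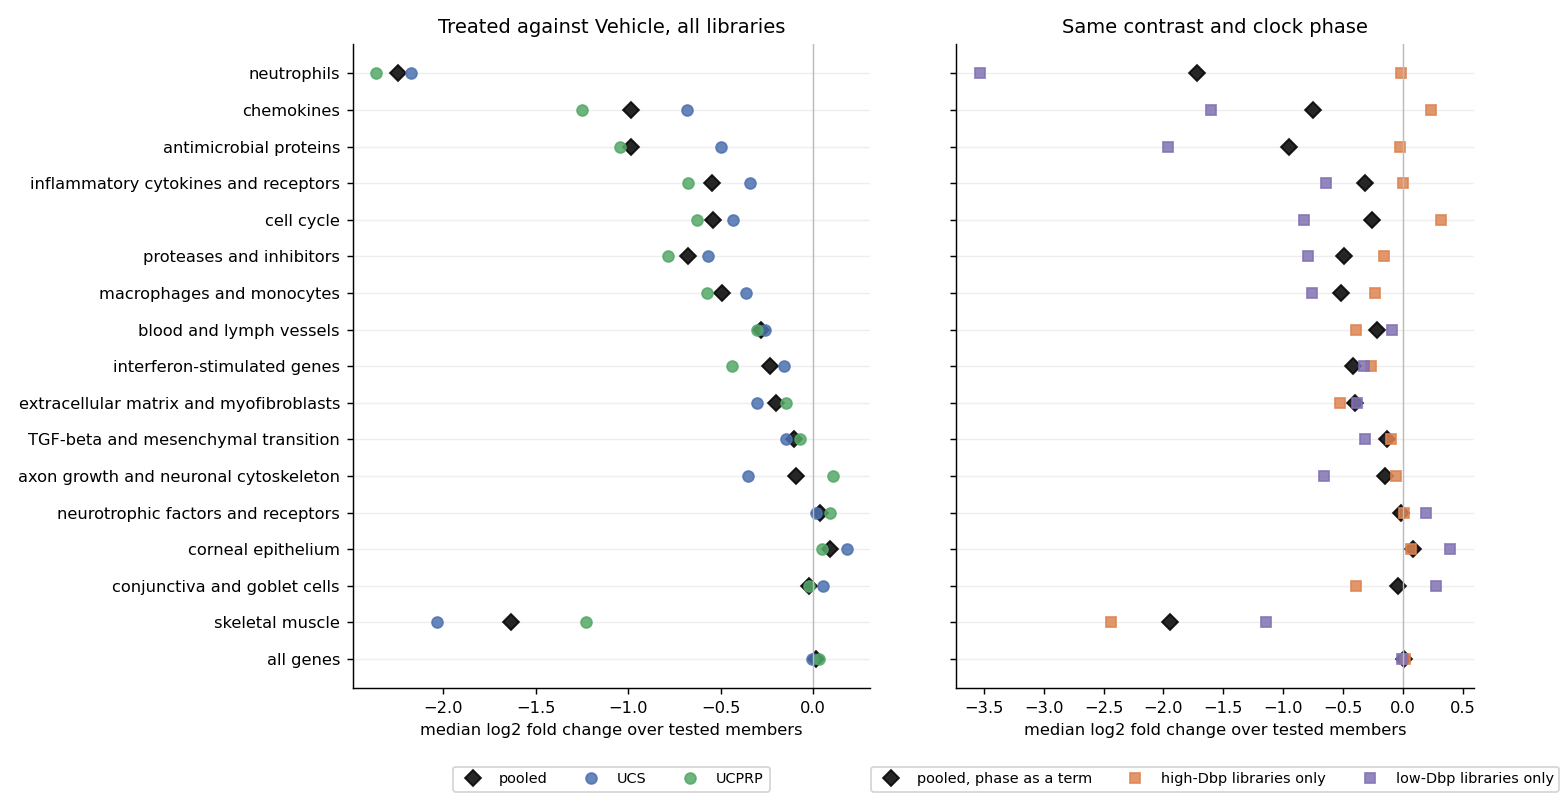
Median log2 fold change of each gene list against Vehicle (x axis; y axis, list). Left, the pooled contrast with UCS and UCPRP separately; right, the pooled contrast with clock phase as a term and within each phase, where neutrophil genes lie at -3.53 among low-Dbp and -0.01 among high-Dbp libraries while matrix genes lie at -0.38 and -0.53.

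Interferon-stimulated genes were lower by a small amount as a list. All 18 tested had a negative log2 fold change (46.7% of all genes did), with a median of -0.23 (-0.16 for UCS and -0.44 for UCPRP). Of these, 3 were at an unadjusted p under 0.05 (5.96% of all genes were lower at that threshold). With clock phase as a term 8 were (3.78% of all genes), and the median was -0.41. In 1 of 18 all treated libraries lay below Vehicle without overlap (1.74% of all genes). The list mean of UCS replicate 3 (5.74 log2 CPM) exceeded that of Vehicle replicate 2 (5.48). Rsad2 (viperin), an antiviral enzyme chosen after its values were seen, was at 22.5, 11.2 and 10.7 CPM in Vehicle, 7.54, 6.56 and 7.0 in UCS and 5.01, 4.16 and 5.6 in UCPRP, without overlap (-1.33 ± 0.34). Slfn1, a Schlafen gene also chosen after its values were seen, was at 19.2, 19 and 7.24 CPM in Vehicle and 1.59 to 10.6 CPM (median 2.4) in treated libraries, of which UCS replicate 3 was the highest. Oasl2, the most abundant of the list, was at 349.9, 262 and 279.9 CPM against 185 to 346 CPM (-0.14). Control libraries lay above all these for Oasl2, at 412 to 559 CPM.

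Gel-forming mucins of goblet cells, nearly absent from Control, were lower in treated libraries. Muc5b was at 226, 161 and 73.4 CPM in Vehicle, 70.8, 30.3 and 58.7 in UCS and 31.8, 34.9 and 40.9 in UCPRP, against 0.154 to 0.466 CPM in Control (-1.81 ± 0.31). With clock phase as a term Muc5b was -1.19, and -0.88 among high-Dbp libraries. UCS replicate 1 came within a few CPM of Vehicle replicate 3. Muc5ac was at 655, 457 and 519 CPM in Vehicle, 437, 243 and 444 in UCS and 163, 174 and 304 in UCPRP, also without overlap (-0.94 ± 0.33); the difference between UCPRP and UCS was -0.81 (adjusted p 0.985 by edgeR's quasi-likelihood test). The conjunctival and goblet cell list as a whole had a median of -0.02, and Krt13, the conjunctival keratin with its highest level, was at 10623, 7287 and 9916 CPM in Vehicle and 7706 to 10813 CPM in treated libraries.

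Genes higher after either biologic were led by Lifr (chromosome 15, 7090610 to 7197489), the receptor subunit for leukemia inhibitory factor, oncostatin M and ciliary neurotrophic factor. It was at 53.9, 47.4 and 72.4 CPM in Vehicle, 118, 81.6 and 90.7 in UCS and 89.1, 95.3 and 89.4 in UCPRP, with 69.1 to 83.5 CPM in Control (0.70 ± 0.15; DESeq2 adjusted p 0.0069). UCS replicate 1 was the highest, and Vehicle replicate 3 the highest of Vehicle. Nrg2, neuregulin 2, a ligand of ErbB receptors, was at 5.33, 6.86 and 9.18 CPM in Vehicle, 11.2, 11.8 and 9.63 in UCS and 17.8, 11.7 and 16.3 in UCPRP (0.86 ± 0.19), with 13.1 to 16.8 CPM in Control. Erbb4, a receptor for neuregulins, was at 3.92, 4.64 and 4.8 CPM in Vehicle and 5.25 to 7.1 CPM (median 5.97) in treated libraries (0.44 ± 0.14), and Ereg, epiregulin, an EGF receptor ligand, at 36, 23 and 29.4 CPM against 36.1 to 44 CPM (median 37.9) (0.40 ± 0.20). Erbb4 and Ereg, chosen after their values were seen, were the 2 of 14 EGF family genes whose groups did not overlap in this direction (1.59% of all genes). For Ereg the gap was small, with 35.98 CPM in Vehicle replicate 1 and 36.10 CPM in UCS replicate 2. Its unadjusted p was 0.068 by edgeR's quasi-likelihood test. The list's median was 0.03.

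Other leading higher genes had varied roles. Cpne7, a calcium-dependent membrane-binding copine, was at 8.93, 8.11 and 14.3 CPM in Vehicle and 15.9 to 20.7 CPM (median 18.2) in treated libraries (0.80 ± 0.21). Thrb, a thyroid hormone receptor, was at 36.8, 39 and 48.2 CPM against 49.4 to 61.1 CPM (median 52.2) (0.37 ± 0.10). Mbd1, a methyl-CpG binding repressor, was at 71.2, 61.1 and 70.8 CPM against 74.9 to 89.6 CPM (median 82.4) (0.27 ± 0.07). No overlap was a condition for naming these genes, and among Cpne7, Thrb and Mbd1 the smallest gap was that of Thrb. For Cpne7 and Thrb, Vehicle replicate 3 lay close to the lowest treated library. Among high-Dbp and low-Dbp libraries, each with an arm of 1 library, Cpne7 was 0.36 and 1.10. Thrb was 0.16 and 0.39, Mbd1 0.22 and 0.31, and Nrg2 0.47 and 0.89. Iqcb1 (a ciliary protein), Zfp974 (a zinc finger protein), Capn15 (a calpain), Klhdc8b (a kelch domain protein) and Ddb2 (a DNA damage recognition factor) had log2 fold changes of 0.36, 0.40, 0.28, 0.34 and 0.33, with edgeR adjusted p from 0.248 to 0.302. In the same order they were 0.24, 0.24, 0.19, 0.15 and 0.14 among high-Dbp libraries, and 0.28, 0.63, 0.44, 0.36 and 0.43 among low-Dbp libraries. No overlap was also a condition for naming them. The lowest treated library lay close to Vehicle replicate 3 for Ddb2 (22.8 against 22.4 CPM), Klhdc8b (54.9 against 54.2 CPM) and Iqcb1 (16.6 against 15.9 CPM). With clock phase as a term, Bcl2, an inhibitor of apoptosis, at 30.6, 26.1 and 28.6 CPM in Vehicle and 31.8 to 40.4 CPM (median 34.6) in treated libraries, was 0.39, and Adamdec1, a metalloprotease of myeloid cells, at 11.3, 9.08 and 11.5 CPM against 11.9 to 18.8 CPM (median 15), was 0.58. Zbtb16 (PLZF), a transcription factor that responds to glucocorticoids and was chosen after its values were seen, was at 4.79, 4.63 and 10.8 CPM in Vehicle, 13.4, 25.4 and 17.6 in UCS and 11.6, 9.58 and 9.97 in UCPRP (1.05 ± 0.29). Vehicle replicate 3 overlapped with UCPRP but not with UCS.

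Krt12, Aldh3a1 and Pax6, genes of mature corneal epithelium, stayed below the Control range in every injured library. Krt12, the keratin of differentiated corneal epithelium, was at 9.19, 7.18 and 23.9 CPM in Vehicle, 18.9, 40.3 and 8.68 in UCS and 186, 7.55 and 3.29 in UCPRP, against 15902 to 32870 CPM in Control. The log2 fold change was 1.52 (SE 1.07); UCPRP replicate 1 was far above the other injured libraries, and the value was -0.28 without it. Aldh3a1, the corneal crystallin enzyme, was at 916, 654 and 1487 CPM in Vehicle and 965 to 2172 CPM (median 1860) in treated libraries (0.76 ± 0.37), with an overlap set by Vehicle replicate 3. Pax6, the transcription factor that maintains corneal identity, was at 440.5, 381 and 445 CPM in Vehicle, 576, 542 and 480.1 in UCS and 528, 454 and 459 in UCPRP, without overlap (0.26 ± 0.11; 622 to 705 CPM in Control). Aldh1a1, a retinaldehyde dehydrogenase of stroma and epithelium, was at 78, 100.5 and 104 CPM in Vehicle and 108 to 241 CPM (median 165) in treated libraries (0.80 ± 0.25); both aldehyde dehydrogenases were chosen after their values were seen. Across 20 tested corneal epithelial genes 2 were lower and 1 higher at an unadjusted p under 0.05 (median 0.09), against 5.96% and 2.66% of all genes. Krt5, the basal keratin with the highest level, was at 6735, 5949 and 7101 CPM against 5820 to 8053 CPM.

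Genes of axons and sensory nerve, the subject of the series title, lay near 0 as lists. Nuclei of sensory neurons lie outside the cornea, so neuronal transcripts here come from axons and from other cells. Gap43, the growth cone protein, was at 8.72, 12.4 and 11.8 CPM in Vehicle, 5.69, 10.0 and 8.89 in UCS and 6.99, 11.7 and 10.9 in UCPRP (-0.29 ± 0.22; 95% interval -0.77 to 0.19). Tubb3, neuronal beta tubulin, was at 8.15, 14.9 and 11.6 CPM in Vehicle, 8.08, 8.22 and 10.8 in UCS and 8.26, 17.2 and 22.5 in UCPRP (0.06 ± 0.32; 95% interval -0.65 to 0.76), with the highest levels in UCPRP replicates 2 and 3. Those intervals hold both a rise and a fall. Retina genes, which include neuronal ones, were also high in UCPRP replicates 2 and 3 (mean log2 CPM 8.44 and 8.74) and low in Vehicle replicate 1 (6.21); their part in these values was not tested beyond the covariate fit, in which Tubb3 was -0.09. Piezo2, a mechanosensitive channel, was at 14.7, 15.9 and 16.1 CPM in Vehicle and 9.6 to 15.9 CPM (median 12.8) in treated libraries, all under the Control range of 41.9 to 58.6 CPM (-0.28 ± 0.16).

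Of 27 axon growth genes 3 were lower and 0 higher at an unadjusted p under 0.05, and the list's median was -0.09, -0.35 for UCS and 0.11 for UCPRP. Map1b, a microtubule protein of growing axons with the list's highest level, was at 108, 171 and 158 CPM against 100.2 to 188 CPM. Among 24 neurotrophic factors and receptors 2 were lower and 2 higher at the same threshold (median 0.04), against 5.96% and 2.66% of all genes. Ntf3, neurotrophin 3, was at 6.56, 5.37 and 7.81 CPM in Vehicle, 10.2, 10.8 and 7.25 in UCS and 11.8, 8.68 and 8.17 in UCPRP (0.53 ± 0.18), where UCS replicate 3 overlapped with Vehicle. Fgf7, keratinocyte growth factor, made by stroma for epithelium, was at 6.5, 7.47 and 3.69 CPM against 1.97 to 4.02 CPM (median 2.89) (-0.99 ± 0.26). Ntf3 and Fgf7 were chosen after their values were seen. Ntrk2, a neurotrophin receptor and the most abundant of that list, was at 94.6, 79.7 and 117 CPM against 94.7 to 157 CPM (0.29).

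The direct comparison of UCPRP with UCS asked whether the averaged groups differed. It gave 0 calls by edgeR (393 genes at an unadjusted p under 0.05, 1.58% lower in UCPRP and 0.856% higher; smallest adjusted p 0.985) and 0 by DESeq2. Against Vehicle, edgeR called 0 genes for UCS (782 at an unadjusted p under 0.05, 3.27% lower and 1.58% higher) and 0 for UCPRP (1572, 6.54% lower and 3.21% higher). DESeq2 called 13 for UCS (0.0682% lower, 0.0124% higher) and 145 for UCPRP (0.879% lower, 0.038% higher). Without Vehicle replicate 3 edgeR called 37 and 195. These separate comparisons use the same 3 Vehicle libraries. Of the genes named above, Zbtb16 was 1.48 for UCS and 0.63 for UCPRP and Nrg2 0.61 for UCS and 1.10 for UCPRP, with differences of -0.85 (SE 0.32) and 0.49 (SE 0.21) that did not pass adjustment. For Tgfb3 the difference between the biologics was -0.04, with a 95% interval from -0.26 to 0.18, and for Lifr -0.09, from -0.45 to 0.28. For Cxcl5 the interval ran from -1.33 to 0.83 and was wider than that of Tgfb3.

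Dbp and Arntl, which define and oppose the phase term, were at 14.7, 25.9 and 163 and 39.1, 47.7 and 19.5 CPM in Vehicle, 24, 161 and 139 and 44.7, 13.6 and 22 in UCS, and 212, 198 and 141 and 9.14, 21.7 and 24.4 in UCPRP. Their pooled log2 fold changes of 1.05 and -0.67 stand beside uneven phases in the groups, and for these genes treatment and phase cannot be told apart.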

How the data were processed

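RNA sequencing of total RNA from pooled mouse corneas gave 12 libraries, 3 in each of 4 groups. Per the file headers the deposited table holds read counts per gene; 64.9% of the values are whole, so these are estimated counts, deposited by the authors without scaling. HISAT and GRCm38 are named in the submitters' processing notes; no source used here names the counting tool, the annotation or whether strand was used, so genes that overlap or resemble each other are uncertain. The library kit was stranded, per the labels' protocols.

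Estimated counts were rounded, filtered with filterByExpr (minimum count 10; 16124 of 19702 genes), scaled by TMM and fitted with edgeR 4.0.16 (R 4.3.3; quasi-likelihood, robust) with 1 term per group over all 12 libraries; Benjamini-Hochberg adjustment over all tested genes, threshold 0.05. Standard errors (SE) were derived from the F statistic and the log2 fold change. The contrast was repeated with a clock phase term (high or low Dbp, divided at the widest gap, about 60.1 CPM), and with DESeq2 1.42.0 and limma 3.58.1 voom. The script was tested on simulated data. Each replicate is a pool, so p-values measure the spread between these pools.

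Genes were named by rule: the 10 smallest unadjusted p each way among genes of at least 5 CPM whose treated and Vehicle libraries do not overlap (none was called), 6 each way with the phase term, a fixed set, and the most abundant member of each list described; others are marked, and some genes are not reported here. The rule, the 40 gene lists (696 of 706 symbols found, 5 by synonym) and the contrast were chosen with earlier results of these data known. Coordinates and upstream sequences are from RefSeq (GRCm38.p6). Same-numbered replicates of different groups did not deviate together throughout (correlation above 0.1 in 7 of 18 pairs). Among Vehicle, UCS and UCPRP, the pairs of replicate 1 were at 0.34, 0.49 and 0.35. Those of replicate 2 were at 0.27, -0.04 and -0.33, and those of replicate 3 at -0.14, -0.14 and 0.26. Numbers were therefore not used to pair libraries.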

Additional observations from a re-analysis of the deposited data

Results flagged for a closer look

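Among the 6 treated libraries, 1 library stood apart from the rest for 7 of 88 genes and 2 of 40 lists examined (its gap to the nearest library took up most of the whole range); chance alone gives about 1 in 20. UCS replicate 3 was the high library for Lcn2 (118 CPM against 14.3 to 26.5 CPM in the other 5), Slfn1 (10.6 CPM against 1.59 to 4.06 CPM in the other 5) and Top2a (100.5 CPM against 49.3 to 67.6 CPM in the other 5), and for the mean log2 level of the chemokine list (3.65 against 2.51 to 2.83 in the other 5). UCPRP replicate 1 was high for Krt12 (186 CPM against 3.29 to 40.3 CPM in the other 5). UCPRP replicate 2 was high for Ppbp (409 CPM against 99.1 to 214 CPM in the other 5) and for the muscle myosin Myh13 (4.56 CPM against 0.0637 to 0.303 CPM in the other 5). UCS replicate 1 was high for Lifr (118 CPM against 81.6 to 95.3 CPM in the other 5) and low for the mean log2 level of the circadian clock list (5.41 against 5.90 to 5.99 in the other 5). It was the only treated library of the low-Dbp phase.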

How the results depend on the processing

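The edgeR count of the pooled contrast stayed at 0 with limma-voom, RLE scaling, no filter, a stricter filter, the 9 injured libraries only, the muscle or retina list as a covariate, both biologics as 1 group and libraries of 1 phase only. DESeq2 called 154 genes (34 with clock phase as a term, 13 for UCS and 145 for UCPRP), and leaving out 1 library gave 0 to 261 genes (0 to 12 with the phase term, 0 to 37 for UCS, 0 to 195 for UCPRP, and 0 to 0 for UCPRP against UCS), every count above 0 coming from the fit without Vehicle replicate 3; the cause was not tested. A numeric clock score in place of the phase term gave 0. With the replicate number as a block the count was 0 for the pooled contrast, with and without phase, and for the other comparisons (1193 genes at an unadjusted p under 0.05 in the pooled contrast, against 1390 without the block); same-numbered libraries correlated from -0.58 to 0.49, so the numbers are not taken as pairs. Of the values of 88 genes under 22 alternatives, 1821 kept their sign and side of the threshold, 67 passed it (38 with DESeq2 and 29 without Vehicle replicate 3) and 46 changed sign. Arntl opposes Dbp, which defines the phase term. The sign changes of Arntl with that term or within a phase are therefore no check of the processing. Signs changed with clock phase as a term for Arntl 0.0434, Krt5 -0.0656; with the muscle covariate for Tubb3 -0.0331, Krt13 -0.0327, Myl1 0.97; with the retina covariate for Tubb3 -0.093; among high-Dbp libraries for Il1b 0.67, Csf3 0.38, Gpnmb -0.022, Timp3 -0.22, Pdpn 0.0146, Mki67 0.40, Krt5 -0.0349, Krt13 -0.10, Ntrk2 -0.0494, Trem1 0.49, Cxcl2 1.27, Socs3 0.000496, Lcn2 0.47, Krt16 0.54, Top2a 0.43, Bub1 0.47; and among low-Dbp libraries for Tubb3 -0.51, Arntl 0.0458, Vim -0.35, Oasl2 0.0814. Leaving out 1 library moved Tubb3 over -0.14 to 0.28, Krt6b over -0.25 to 0.0428, Gpnmb over -0.11 to 0.23, Timp3 over -0.0868 to 0.19, Krt5 over -0.00695 to 0.14, Krt13 over -0.12 to 0.15, Map1b over -0.21 to 0.0912, Sparc over -0.22 to 0.27, Col1a1 over -0.37 to 0.17, Krt12 over -0.28 to 2.23, Vim over -0.0215 to 0.26. Chil3 and Myh13 lay near the floor of 3 counts in several treated libraries, and 3 pools a group, of which 1 Vehicle pool stands apart, limit every comparison here.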
